A study of Mus musculus with 12 samples.

Results

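This account concerns 8 genes: Runx1, Runx2, Runx3, Cbfb, Nfatc1, Nfatc2, Nfatc3 and Nfat5. They encode RUNX and NFAT transcription factors and CBFβ, the partner of RUNX proteins, and some of these proteins are known to bind FOXP3. The genes were taken by symbol, and they were chosen with earlier results of these data known. All 8 were found among the 10405 genes listed for regulatory T cells (Treg) and among the 9886 listed for conventional T cells (Tcon), and 9784 genes are in both lists. Nfatc4 and Runx1t1 are not among the listed genes and were not analysed here.

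RNA was sequenced in 12 libraries, 6 from naive CD4+ Tcon and 6 from CD4+CD25+FOXP3+ Treg. Every mouse, controls included, carried the B6.Cg-Foxp3tm2Tch/J genotype (FOXP3-IRES-GFP), in which the Foxp3 locus also encodes GFP, so no library comes from unmodified mice. Vehicle (DMSO in the titles) or the stapled peptide SAH-FOXP3(229-259)C, at 25 mg/kg, was injected into the peritoneum once a day for 2 days; age and sex are not given in the labels used here. For each cell type, library 1 is lymph node with vehicle, libraries 2 and 3 are lymph node with the peptide (SAH below), library 4 is spleen with vehicle and libraries 5 and 6 are spleen with SAH. The labels do not say whether libraries came from separate mice, so the p-values speak only of the spread among these libraries, and that spread may be technical.

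RUNX proteins are transcription factors with a shared DNA-binding domain, the Runt domain, and each works as a dimer with CBFβ, the product of Cbfb, which does not bind DNA itself but strengthens the binding of its RUNX partner. RUNX1 and RUNX3 guide the choice between CD4 and CD8 T cell fates, maintain Foxp3 transcription in Treg and bind FOXP3 protein, and RUNX2 is best known as the master regulator of bone formation. NFATc1, NFATc2 and NFATc3 wait in the cytoplasm until calcium entry activates the phosphatase calcineurin, which strips their phosphates and sends them to the nucleus. There they bind DNA together with AP-1 in activated T cells, and NFAT can pair with FOXP3 in Treg. NFAT5 has a related DNA-binding domain but is not controlled by calcineurin, and it is best known for the response to high salt.

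The 3 RUNX genes share a promoter feature that the choice of genes did not use. Each has, in its most upstream RefSeq promoter window (250 bases before to 50 after the gene start, GRCm38.p6), 2 copies of the RUNX binding sequence TGTGGTT 1 base apart, and the sites are printed because they show what the 3 genes share besides their protein family. They are written 5′ to 3′ on the strand of the gene, where the RUNX sequence is read as its reverse complement, and the capitals mark the 2 copies:
Runx1, chr16:92826026-92826054, minus strand: cataaacAACCACAgAACCACAagttggg
Runx2, chr17:44814584-44814612, minus strand: cacaaacAACCACAgAACCACAagtgcgg
Runx3, chr4:135120503-135120531, plus strand: gtccctcAACCACAgAACCACAaggccag
Counting the start base of the RefSeq window as 1, the pair lies at bases 28 to 42 of Runx1 and 23 to 37 of Runx2. There it is in 5′ untranslated sequence of the GENCODE annotation of mm10. The starts of Runx1 and Runx2 in that annotation, given below, lie further upstream. In Runx3 the pair lies upstream of the RefSeq start, at -135 to -121. The pair, as 2 copies of TGTGGTT in the same direction with any 1 base between them on either strand, was found in 5 of 32851 RefSeq windows of the same length (0.0152%), which are those of Runx1, Runx2, Runx3, Gm16225, whose window overlaps that of Runx3 on the opposite strand, and Olfr24. A single TGTGGTT, which the pair also counts as, was found in 5.27% of windows. Among the other genes, no TGTGGTT was found in the windows of Cbfb, Nfatc2, Nfatc3 and Nfat5. The core of the NFAT site, TGGAAA on either strand, was found in 21.4% of all windows, and among the 8 genes in both Runx1 windows and in 1 of the 2 Nfatc2 windows. These matches describe the letters of the windows and do not show that a factor binds there.

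The libraries fit their labels as Treg and Tcon. Depth rebuilt from the smallest steps between values was 36442420 to 48888678 reads in the listed genes. A single read therefore adds no more than 0.0267 CPM, the normalized read count of the deposited tables. Foxp3 ran from 655 to 726 CPM in the Treg libraries and from 19.6 to 24.9 CPM in those of Tcon. The sum of 5 Treg markers (Foxp3, Il2ra, Ikzf2, Ctla4, Tnfrsf18) was 3881 to 4397 CPM in Treg and 236 to 286 CPM in Tcon, and Cd4 was at 696 CPM or more in all 12 libraries. A GEO label calls every sample, Treg included, a naive primary T cell. The naive T cell markers Ccr7, Lef1 and Tcf7 were each lower in all Treg than in all Tcon libraries: Ccr7 was at 207 to 344 CPM in Treg and 587 to 861 CPM in Tcon, Lef1 at 137 to 168 and 374 to 443 CPM, and Tcf7 at 598 to 676 and 1610 to 1838 CPM.

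In the mm10 annotation Runx1 is at chr16:92601466-92826149 (minus strand), Runx2 at chr17:44495987-44814797 (minus strand) and Runx3 at chr4:135120652-135177990 (plus strand). Nfatc1 is at chr18:80606205-80713071 (minus strand) and Nfatc2 at chr2:168476410-168601657 (minus strand). Cbfb (chr8:105170674-105217989), Nfatc3 (chr8:106058840-106130537) and Nfat5 (chr8:107293470-107379517) are all on the plus strand of chromosome 8, within 2.21 Mb.

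All 8 genes were expressed in both cell types, but at levels that ranged over more than an order of magnitude. Levels of different genes are compared per kilobase of annotated exon (CPM per kb, mean ± SD of the 6 libraries of a cell type). The length joins the exons of all annotated transcripts, not those of the expressed isoform, and the order depends on it. In plain CPM the mean of Cbfb was 163 in Treg and 192 in Tcon, below Nfatc3 at 402 and 425. Cbfb, the shared partner, led both cell types, at 46.8 ± 1.63 in Treg and 55.2 ± 2.98 in Tcon, and was 4.79 to 5.79 times Runx1 per kb in each Treg library and 5.90 to 7.67 times in each Tcon library. In Treg it was followed by Nfatc1 at 38.3 ± 4.50 and Nfatc3 at 34.3 ± 4.14, whose ranges overlap although Nfatc1 was the higher in 6 of 6 libraries. Next came Nfat5 at 19.1 ± 1.12 and Nfatc2 at 16.2 ± 0.407. Runx3 (9.21 ± 0.551) and Runx1 (8.84 ± 0.713) overlapped, Runx3 being the higher in 4 of 6 libraries, and Runx2 was last at 2.64 ± 0.625.

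The order in Tcon put Nfatc3 (36.2 ± 2.77) above Nfatc1 (25.3 ± 0.868) with no overlap. Runx3 (14.3 ± 1.08) and Nfatc2 (11.5 ± 0.838) overlapped by a narrow margin, as did Runx1 (8.37 ± 0.674) and Nfat5 (6.47 ± 0.887). Runx2 was again the lowest, at 0.385 ± 0.189. Nfat5 therefore stood 4th of 8 per kb in Treg and 7th in Tcon, and Runx3 stood 6th in Treg and 4th in Tcon.

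**Figure D1:**
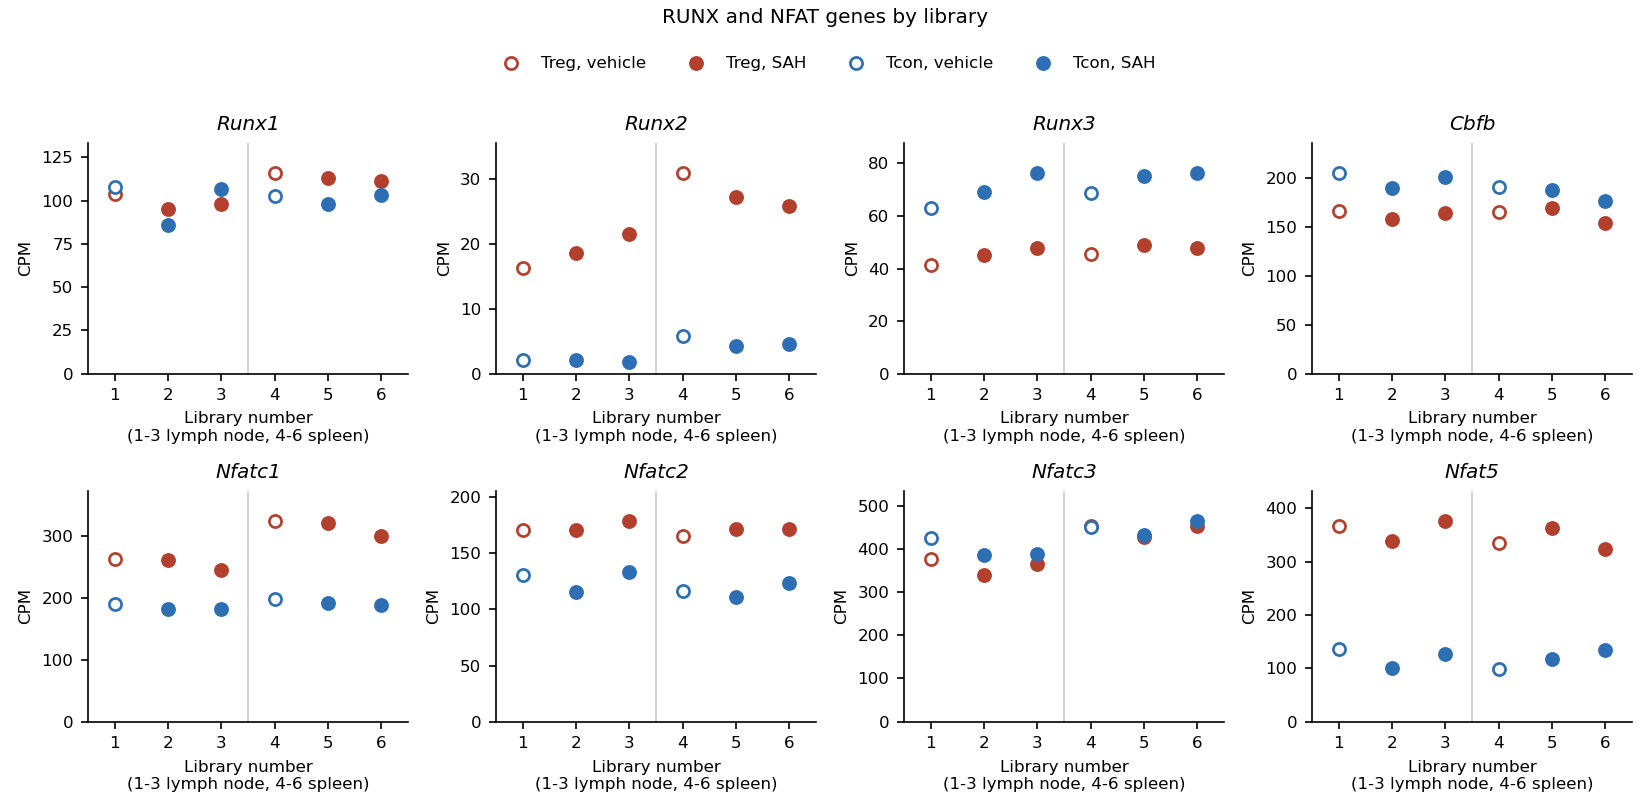
CPM of each gene (y axis, from 0, own scale per panel) in libraries 1 to 6 (x axis; 1 to 3 lymph node, 4 to 6 spleen) for Treg (red) and Tcon (blue), with vehicle libraries as open and SAH libraries as filled circles. Runx2 and Nfat5 are higher in Treg at every number, Runx3 and Cbfb are higher in Tcon at every number, and Runx2 is higher in spleen in both cell types.

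Treg and Tcon differed most in Runx2 and Nfat5. The deposited values of the cell types were normalized separately, so these differences are side by side values without a test, and in bulk RNA fewer cells expressing a gene and less RNA per cell cannot be told apart. Of the 8 genes, 4 (Runx2, Nfat5, Nfatc1, Nfatc2) were higher in all Treg than in all Tcon libraries, as were 33.1% of the 9784 genes. The other way round, 2 (Runx3 and Cbfb) were higher in all Tcon libraries, as were 19.1% of genes. Under a single median-ratio scaling of all libraries both directions were nearly even over all genes, at 2541 and 2521 genes. Runx1 and Nfatc3 overlapped.

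Runx2 measured 16.3, 18.6 and 21.4 CPM in the lymph node Treg libraries and 30.9, 27.1 and 25.7 CPM in the spleen Treg libraries. In Tcon it measured 2.03, 2.04 and 1.79 CPM in lymph node and 5.77, 4.30 and 4.51 CPM in spleen. The highest Tcon library was thus below the lowest Treg library, and the mean was 6.85 times higher in Treg, a ratio above that of 99.0% of genes. At each library number the ratio was 8.04, 9.12 and 12.0 in lymph node and 5.36, 6.30 and 5.70 in spleen. The Tcon values rest on 70 to 244 reads, and the counting interval (95%, exact Poisson, counting error only) was 1.39 to 2.26 CPM for the lowest library and 5.06 to 6.54 CPM for the highest. Foxp3 in Tcon was 3.22% of its Treg mean by the same measure, and Runx2 was 14.6%.

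Nfat5 measured 367, 340 and 377 CPM in lymph node Treg and 335, 363 and 324 CPM in spleen Treg. In Tcon it measured 136, 101 and 127 CPM in lymph node and 98.7, 117 and 134 CPM in spleen. The Treg mean was 2.95 times the Tcon mean (2.43 to 3.39 times at the 6 library numbers), above the ratio of 96.4% of genes. Nfat5 was also the most variable of the NFAT genes among Tcon libraries, where the highest was 1.38 times the lowest.

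Among the calcineurin-controlled members, Nfatc1 was 1.52 times higher in Treg (1.35 to 1.67 times by library number) and Nfatc2 1.41 times (1.31 to 1.54 times). Nfatc3, at 402 ± 48.6 CPM in Treg, was close to its Tcon mean of 425 ± 32.4 CPM (SD, n = 6), a ratio of 0.947 with overlapping libraries.

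Runx3 measured 41.3, 45.1 and 47.7 CPM in lymph node Treg and 45.6, 49.1 and 47.7 CPM in spleen Treg. In Tcon it measured 63.0, 69.3 and 76.4 CPM in lymph node and 68.8, 75.3 and 76.3 CPM in spleen. Tcon was 1.55 times Treg, and the ratio of Treg to Tcon varied little, from 0.624 to 0.663 over the 6 library numbers. Cbfb was 1.18 times higher in Tcon. The Treg mean of Runx1 was 106 ± 8.57 CPM beside 101 ± 8.11 CPM for Tcon, and under a single scaling of all libraries its ratio turned from just above to just below 1.

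**Figure D2:**
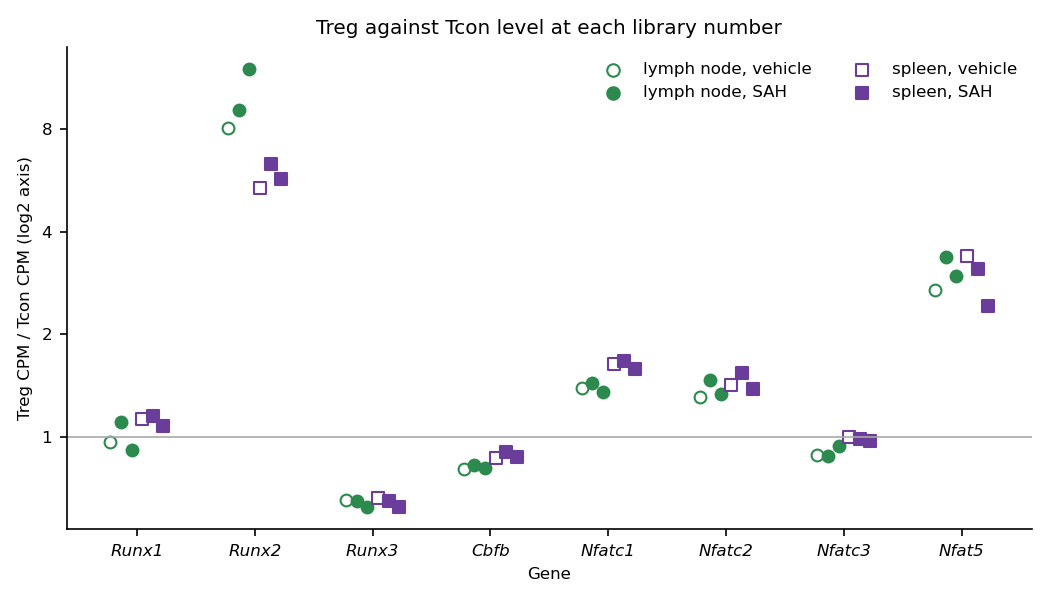
Treg CPM divided by Tcon CPM at the same library number (y axis, log2 scale; the line marks 1) for each gene (x axis), with lymph node as circles, spleen as squares, vehicle open and SAH filled. Runx2 lies between 5.36 and 12.0 and Nfat5 between 2.43 and 3.39, Runx3 lies near 0.644, and Nfatc1 is higher in the 3 spleen pairs than in the 3 lymph node pairs.

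Within each family the mix of members differed between the cell types, a comparison that does not depend on the scaling of a library. The shares do rest on the same joined exon lengths. Of the summed RUNX level per kb, Runx3 held 62.0% ± 2.67 in Tcon and 44.6% ± 2.46 in Treg (SD, n = 6), with ranges of 57.8% to 65.3% and 40.9% to 47.4% that do not overlap. Runx1 held 36.3% ± 2.68 and 42.7% ± 1.93, and Runx2 held 1.66% ± 0.793 and 12.6% ± 2.10. Of the summed NFAT level, Nfatc3 held 45.5% ± 1.73 in Tcon and 31.7% ± 1.81 in Treg, and Nfat5 held 8.13% ± 0.987 and 17.8% ± 1.91. Nfatc1 (31.9% in Tcon, 35.4% in Treg) and Nfatc2 (14.5% and 15.1%) were closer.

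**Figure D3:**
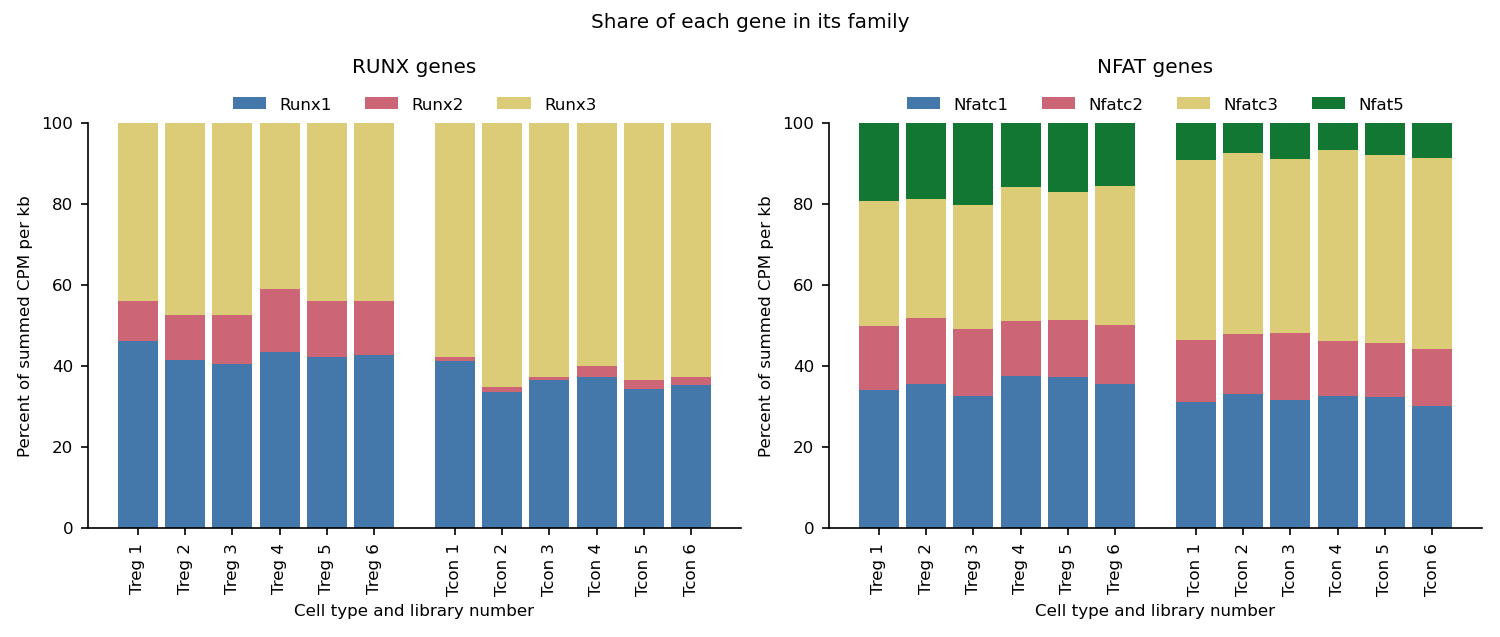
Percent of the summed CPM per kb of the RUNX genes (left) and the NFAT genes (right) that each member holds (y axis, 0 to 100), 1 bar per library (x axis). Runx3 fills more of the Tcon bars (62.0% on average) than of the Treg bars (44.6%), and Nfat5 more of the Treg bars (17.8%) than of the Tcon bars (8.13%).

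Spleen was compared with lymph node within each cell type, with treatment as a second term of the same model. In Treg, 4 of the 8 genes passed the test (limma on log2(CPM + 1), Benjamini-Hochberg adjusted p below 0.05 over all listed genes), and all 4 were higher in spleen, as were 8.71% of the 10405 genes. They were Runx1, Runx2, Nfatc1 and Nfatc3, so that members of both families rose. In each of them the 3 spleen libraries lay above the 3 lymph node libraries. The share of all genes that separate in this way was not counted, so this is a description only. Across the 8 genes the median log2 change was 0.14, beside -0.0028 for all genes.

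Runx2 was 27.9 ± 2.67 CPM in spleen Treg against 18.8 ± 2.58 CPM in lymph node Treg (SD, n = 3), a log2 change of 0.55 (95% interval 0.35 to 0.76, limma adjusted p = 0.00124). Nfatc3, at 376, 340 and 364 CPM in lymph node and 452, 428 and 454 CPM in spleen, rose by 0.30 on the log2 scale (0.20 to 0.41, adjusted p = 0.000792). Nfatc1, at 264, 262 and 246 CPM in lymph node and 325, 322 and 300 CPM in spleen, rose by 0.29 (0.19 to 0.40, adjusted p = 0.000916). These 3 changes were called whichever of the 6 Treg libraries was left out.

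Runx1 showed the smallest of the 4 changes. It measured 104, 95.2 and 97.8 CPM in lymph node Treg and 116, 113 and 111 CPM in spleen Treg, a log2 change of 0.20 (0.10 to 0.30, limma adjusted p = 0.0109). Its call was lost without library 1 (adjusted p = 0.0545), library 2 (0.0786) or library 4 (0.0547), with log2 changes of 0.22, 0.18 and 0.22. Of the 4 genes that did not pass in Treg, Runx3 had a log2 change of 0.09 (-0.03 to 0.20), Cbfb 0.0043 (-0.10 to 0.11), Nfatc2 -0.03 (-0.13 to 0.06) and Nfat5 -0.08 (-0.20 to 0.04).

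In Tcon, Runx2 was the 1 gene of the 8 that passed the test, higher in spleen, where 3.28% of the 9886 genes were called higher. It was 4.86 ± 0.790 CPM in spleen against 1.95 ± 0.142 CPM in lymph node (SD, n = 3), a log2(CPM + 1) change of 0.98 (0.74 to 1.23, limma adjusted p = 0.00053). The added 1 CPM shrinks this change, which was 1.26 with 0.1 CPM added. The 5 Treg markers summed to 236 to 242 CPM in lymph node Tcon and 244 to 286 CPM in spleen Tcon. Foxp3 among them was at 21.8 to 24.9 and 19.6 to 22.6 CPM, a log2 change of -0.14. Ikzf2 was at 12.94 to 16.96 CPM in lymph node Tcon and 19.26 to 33.62 CPM in spleen Tcon, with no overlap. The ranges of Foxp3, Il2ra, Ctla4 and Tnfrsf18 overlapped between the organs. Of the 5, 4 had a log2 change above 0 and 0 passed the test (median 0.15), and their part in the change of Runx2 was not tested. Nfatc3 measured 425, 386 and 387 CPM in lymph node and 451, 433 and 465 CPM in spleen. At a log2 change of 0.17 (0.05 to 0.29) it did not pass (limma adjusted p = 0.109). The other 6 ran from a log2 change of -0.11 (Nfatc2) to 0.08 (Runx3).

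Markers of other blood cells differed between the organs in the same libraries. The 6 listed of 10 myeloid and dendritic markers summed to 29.9 to 32.6 CPM in lymph node Treg and 70.1 to 109 CPM in spleen Treg. In Tcon the 4 listed summed to 23.6 to 25.4 CPM and 44.9 to 51.8 CPM. Their defining member Lyz2, lysozyme of macrophages and granulocytes, was at 0.901 to 1.33 CPM in lymph node Treg and 21.6 to 52.2 CPM in spleen Treg. All 6 rose and passed in Treg. In Tcon 1 of the 4 passed (median log2 change 0.25), which was Lyz2, at no more than 0.664 CPM in lymph node and 18.1 to 22.7 CPM in spleen. Cst3, Itgam and Cd68 did not pass in Tcon, and the lymph node and spleen ranges of each overlapped there. Jchain, the joining chain of secreted antibody, carried the rise of the 3 listed of 5 plasma cell markers, from 107 to 128 CPM up to 215 to 250 CPM in Treg and from 106 to 136 CPM up to 155 to 231 CPM in Tcon. The CD8 and NK markers (5 listed of 10 in Treg, 6 in Tcon) were at 38.9 to 40.0 and 38.1 to 38.4 CPM in lymph node and spleen Treg, and at 30.4 to 36.6 and 85.7 to 114 CPM in Tcon. The even sum in Treg holds members that moved in opposite directions: Ccl5, Klrb1c and Eomes rose in spleen (Klrb1c from 1.08 to 1.44 CPM up to 3.38 to 3.91 CPM) and Nkg7 fell from 18.3 to 22.4 CPM down to 9.62 to 12.0 CPM, with a median log2 change of 0.65 over the 5. In Tcon 5 of the 6 rose and passed (Klrb1c, Ccl5, Nkg7, Eomes and Klrd1). The other, Cd8b1, was at 13.8 to 14.4 CPM in lymph node Tcon and 13.5 to 14.3 CPM in spleen Tcon. The listed B cell markers (3 of 10 in Treg, 2 in Tcon) summed to 16.1 to 17.2 CPM in lymph node Treg and 23.9 to 24.9 CPM in spleen Treg, where 2 of the 3 passed. In Tcon they summed to 2.68 to 3.56 and 5.39 to 6.85 CPM, and 1 of the 2 passed. The 1 listed red cell marker, Alas2, was at 0.600 to 0.784 CPM in lymph node Treg and 2.31 to 28.8 CPM in spleen Treg. The part of these cells in the organ differences of the 8 genes was not tested.

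**Figure D4:**
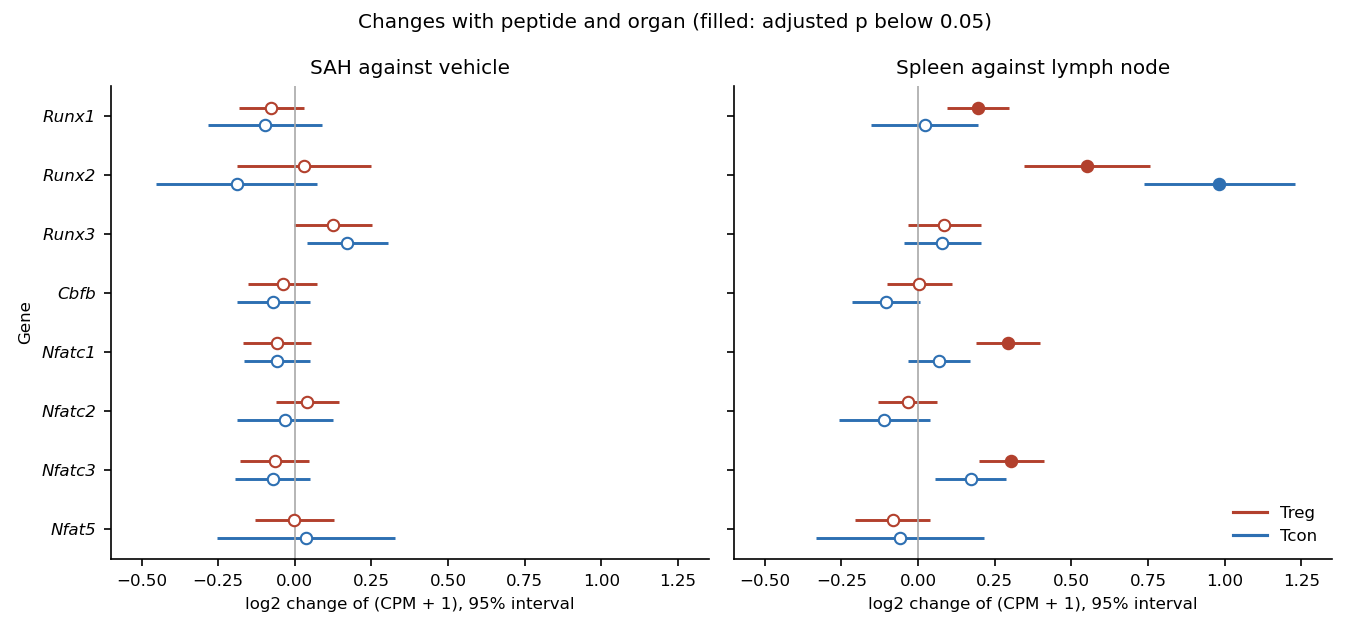
Log2 change of (CPM + 1) with its 95% interval (x axis) for each gene (y axis) in Treg (red) and Tcon (blue), SAH against vehicle on the left and spleen against lymph node on the right. Circles are filled where the limma adjusted p was below 0.05: Runx1, Runx2, Nfatc1 and Nfatc3 in Treg and Runx2 in Tcon for the organ, and no gene for SAH.

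Whether the organ difference itself differed between Treg and Tcon was tested in 1 model of all 12 libraries. Without pairing, 0 of the 8 genes passed (limma, 2 at an unadjusted p below 0.05). Of the 9784 shared genes 1.46% passed, and 1190 were at an unadjusted p below 0.05. The largest differences were Nfatc1, whose rise in spleen was greater in Treg by 0.22 on the log2 scale (0.09 to 0.36, adjusted p = 0.113), and Runx2, whose rise was smaller in Treg, with a difference of -0.43 (-0.76 to -0.11, adjusted p = 0.230). With 0.1 CPM added in place of 1 CPM the difference of Runx2 was -0.69 (limma adjusted p = 0.0602). Treg and Tcon libraries of 1 number deviated together, and with the number as a block both genes passed (adjusted p = 0.0115 for Nfatc1 and 0.0377 for Runx2), as did 7.19% of genes. Without Tcon library 2 and without the block, Runx1 passed, with a difference of 0.28 (adjusted p = 0.0349) in place of 0.17 (0.507).

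The profile most like that of Runx2 over the 12 libraries, after each table was centred, was that of Zcchc18 (r = 0.988, log2(CPM + 1)), followed by Ccrl2, a chemokine-binding receptor (r = 0.968), and Kif13a, a kinesin motor (r = 0.966). Zcchc18 ran from 12.6 to 21.0 CPM in Treg. Since all points share their libraries and the organ step, these correlations are a description. The other 7 genes varied by less than 1.5 times within a cell type.

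The peptide was compared with vehicle in each cell type, with organ as the second term, to ask how the RUNX and NFAT genes stood after a FOXP3-derived peptide. None of the 8 genes passed the test in Treg, where 0.202% of genes were called, and none in Tcon, where 1.04% were (limma adjusted p below 0.05). At an unadjusted p below 0.05 there were 0 of 8 in Treg, beside 733 of all 10405 genes. In Tcon there was 1 of 8, beside 1391 of all 9886 genes. The authors' deposited table also calls 0 of the 8 in either cell type. In Treg the log2 changes ran from -0.08 (Runx1) to 0.12 (Runx3). The 95% intervals of the 8 genes lay within folds of 0.878 to 1.19 in CPM + 1. In Tcon they ran from -0.19 (Runx2) to 0.17 (Runx3), with intervals within 0.731 to 1.25. On the scale of CPM + 1, these bounds apply to 1 change shared by both organs, with all 6 libraries of a cell type in the fit. They do not bound the change in a single organ, and fits with a library left out went beyond them. In such fits the log2 change of Runx2 in Treg ran from -0.22 to 0.28, and that of Nfat5 in Tcon from -0.26 to 0.34. Small changes could not be detected with 1 vehicle library per organ. The lower bound in Tcon is that of Runx2, whose log2 change was -0.23 with 0.1 CPM added in place of 1 CPM. A larger fall in the CPM of Runx2 is therefore not excluded.

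Runx3 had the highest change in both cell types. Each of the 4 SAH libraries was above the vehicle library of its organ in Treg (lymph node 45.1 and 47.7 CPM with SAH, 41.3 CPM with vehicle; spleen 49.1 and 47.7 CPM, vehicle 45.6 CPM). The same held in Tcon (69.3 and 76.4 against 63.0 CPM, and 75.3 and 76.3 against 68.8 CPM). Both SAH libraries of an organ were set against the same vehicle library, and Treg and Tcon libraries of 1 number deviated together. These comparisons are therefore not independent. The log2 change was 0.12 in Treg (-0.0026 to 0.25, limma adjusted p = 0.715) and 0.17 in Tcon (0.04 to 0.30, adjusted p = 0.228), neither of which passed over all genes. In the authors' deposited table Runx3 in Tcon has a log2 fold change of 0.17, a p of 0.0126 and a false discovery rate of 0.188.

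Other genes lay on 1 side of vehicle without passing. The share of all genes that lie on 1 side in this way was not counted. These counts and those of Runx3 are therefore a description only. Nfatc1 was below the vehicle library of its organ in all 4 SAH libraries of Treg and of Tcon, at a log2 change of -0.06 in each (limma adjusted p = 0.914 and 0.658). Runx1 was below in 4 of 4 in Treg (-0.08, adjusted p = 0.868) and Cbfb in 4 of 4 in Tcon (-0.07, adjusted p = 0.629). Foxp3 itself had a log2 change of 0.05 in Treg (-0.07 to 0.17, adjusted p = 0.955).

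The effect of SAH did not pass a test of a difference between organs or cell types for any of the 8 genes. In Treg, Runx2 was above vehicle in lymph node (18.6 and 21.4 CPM, vehicle 16.3 CPM) and below it in spleen (27.1 and 25.7 CPM, vehicle 30.9 CPM). The difference of spleen minus lymph node was -0.50 on the log2 scale (-0.85 to -0.15, limma adjusted p = 1), and 0.00961% of genes passed. In Tcon, Nfat5 went the other way, with 136 CPM for vehicle and 101 and 127 CPM for SAH in lymph node but 98.7, then 117 and 134 CPM in spleen. Its difference was 0.60 (0.19 to 1.01, limma adjusted p = 0.913), and 0% of genes passed (504 at an unadjusted p below 0.05). Between Treg and Tcon the SAH effects of the 8 genes differed by -0.05 (Runx3) to 0.22 (Runx2, -0.12 to 0.56), and 0% of genes passed (limma, 453 at an unadjusted p below 0.05). With the library number as a block 76 genes passed, and none of the 8 did (smallest adjusted p = 0.598).

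The signalling chain that frees NFAT was read from 30 genes of calcineurin, its regulators and store-operated calcium entry, of which 26 were listed in Treg and 24 in Tcon. With SAH, 0 passed in either cell type, and the median log2 change was 0.01 for Treg, 0.03 for Tcon (0.0035 and -0.0028 for all genes). In spleen Treg 3 of the 26 rose and 2 fell, near the shares of all genes called higher (8.71%) and lower (6.01%). The median log2 change was 0.08 beside -0.0028. Rcan3, of the family of calcineurin regulators, fell from 107, 95.2 and 98.4 CPM in lymph node to 66.6, 58.4 and 56.1 CPM in spleen Treg, a log2 change of -0.72 (limma adjusted p = 2.63e-07). In Tcon Rcan3 was the 1 gene of the list that passed, at 80.3, 70.1 and 70.6 CPM in lymph node and 55.9, 53.8 and 53.9 CPM in spleen (-0.42, adjusted p = 0.0011), and it was among the 1.46% of all genes called lower there. Both calls held whichever library was left out. In Treg the calcium sensor Stim1 (log2 change 0.21), the channel Orai1 (0.23) and the inositol trisphosphate receptor Itpr1 (0.18) rose, and the phospholipase Plcg1 (-0.20) fell. Each of these 4 calls was lost without library 1 and without library 4, those of Orai1 and Itpr1 also without library 2 and that of Plcg1 also without library 3, at adjusted p of up to 0.352. That of Orai1 was lost as well with each library rescaled to the same total (0.0562).

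Genes that NFAT is known to switch on in T cells form a list of 20, of which 17 were listed in each cell type. With SAH, 0 passed in Treg (median log2 change -0.03) and 3 rose in Tcon (median 0.06), where 1.04% of all genes were called, all of them NR4A orphan nuclear receptors. In Tcon Nr4a2 rose by 0.55, Nr4a3 by 0.66 and Nr4a1 by 0.42 on the log2 scale (limma adjusted p = 0.00344, 0.00496 and 0.0227). The call of Nr4a2 held in all 6 fits with a library left out, that of Nr4a3 was lost without library 3 or 4 (adjusted p up to 0.0958) and that of Nr4a1 without library 3, 4 or 6 (up to 0.296). In spleen Treg 6 rose and 3 fell (median 0.05), beside 8.71% and 6.01% of all genes. The high-affinity IL-2 receptor chain Il2ra fell by 0.43 and Egr3 by 0.45, while Nr4a1 rose by 0.35, Nr4a3 by 0.36 and the cytokine Ifng by 0.48. Irf4 fell by 0.27, and this call was lost without library 2 (adjusted p = 0.0639). In spleen Tcon 3 rose and 1 fell (median 0.16), beside 3.28% and 1.46% of all genes. Ifng rose from 3.07, 4.29 and 3.47 CPM to 30.4, 28.7 and 23.9 CPM, a log2 change of 2.64, Nr4a1 rose by 0.49 and Fasl by 0.52. Tox fell by 0.29, and its call was lost in 5 of 6 fits with a library left out.

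Of 23 cofactors and regulators of RUNX proteins, 18 were listed. None passed with SAH in either cell type (medians -0.02 in Treg and 0.03 in Tcon). In spleen Treg 2 rose and 2 fell (median -0.02), a share near that of all genes (8.71% higher and 6.01% lower). The corepressors Tle4 (log2 change 0.20) and Aes (0.17) rose, and the ubiquitin ligases Smurf1 (-0.22) and Smurf2 (-0.17), which can tag RUNX proteins for degradation, fell; each of these calls was lost in 3 to 5 of 6 fits with a library left out, and that of Aes also with each library rescaled to the same total (adjusted p = 0.0898) and with a filter of 5 CPM (0.0517). In spleen Tcon Smurf2 alone passed, with a fall of 0.36 (limma adjusted p = 0.00427) that held in 6 of 6 such fits (median of the list -0.02; 1.46% of all genes were called lower).

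RUNX target genes of T cells form a list of 22, of which 19 were listed in Treg and 16 in Tcon; it shares Ifng, Il2 and Cd40lg with the NFAT targets. With SAH, 1 rose in Treg and 0 in Tcon (medians 0.03 and -0.01), beside 0.202% and 1.04% of all genes called. The gene in Treg was Itgae, the integrin chain CD103 that holds T cells to epithelium, which stood at 141 CPM with vehicle and 213 and 228 CPM with SAH in lymph node, and at 52.5, 68.1 and 77.3 CPM in the same order in spleen, a log2 change of 0.55 (limma adjusted p = 0.000918). That call was lost without library 1 (0.46, adjusted p = 0.114). In spleen Treg 7 rose and 2 fell (median 0.10), beside 8.71% and 6.01% of all genes. Itgae fell by 1.53 and Myb by 0.42, and the integrin chain Itga4 rose by 0.69, Gfi1 by 0.51, Klf2 by 0.51 and Ifng by 0.48, all called in each fit with a library left out. In spleen Tcon 4 rose and 0 fell (median 0.10), beside 3.28% and 1.46%. Tbx21, which encodes the T helper 1 regulator T-bet, rose by 2.51 beside Ifng, Itga4 by 0.41 and Myb by 0.25. The call of Itga4 was lost without library 3 (adjusted p = 0.0525) and that of Myb in 4 of 6 such fits. The rise of Ifng and Tbx21 in spleen Tcon came with the rise of 5 of the 6 listed CD8 and NK markers given above. Cd8b1 did not rise. The part of the cells with these markers was not tested.

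Targets of NFAT5 in the response to high salt form a list of 8, of which 7 were listed. The log2 change with SAH was above 0 for all 7 in Treg and in Tcon. The medians were 0.06 and 0.29, beside 0.0035 and -0.0028 for all genes. The share of all genes above 0 was not counted, and the list was chosen with earlier results of these data known. The change of Nfat5 itself was -0.0012 in Treg (-0.13 to 0.13) and 0.04 in Tcon (-0.25 to 0.33). In Treg 1 rose, where 0.202% of all genes were called: the heat shock gene Hspa1b, which has other known inducers, by 1.74 (limma adjusted p = 2.08e-09). In Tcon 3 rose, where 1.04% were called: Hspa1b by 2.37, the amino acid transporter Slc38a2 by 0.41 and the kinase Sgk1 by 0.54 (adjusted p = 0.00113, 0.0478 and 0.0485). The calls of Slc38a2 and Sgk1 were lost in 4 of 6 fits with a library left out and with each library rescaled to the same total (adjusted p = 0.0634 for each). In spleen Treg 2 rose (Hspa1b by 1.64 and Sgk1 by 0.34) and 1 fell (Hspa4l, -0.30, lost in 3 of 6 fits with a library left out), with a median of -0.01, beside 8.71% and 6.01% of all genes. In spleen Tcon Hspa1b rose by 0.94, a call lost without library 3 or 6 (adjusted p up to 0.0931), and 0 fell (median -0.06), beside 3.28% and 1.46% of all genes.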

How the data were processed

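RNA-seq values of 12 mouse libraries were used as the authors deposited them, in 1 table per cell type. The submitters' processing notes name TopHat, Bowtie, edgeR and the build mm10, without versions; the annotation, the program that counted reads and its strand setting are not given in the sources used. The deposited signal is called CPM in the file headers, and column totals of 971928 to 1021430 show a further scaling of each library. Per the file headers, the log2 columns hold the authors' fold change and mean level, the score columns a likelihood ratio and a call, and the p-value columns raw values and a false discovery rate. Every listed gene reached 1 CPM in at least 3 libraries. Reads were rebuilt from the step of 1 read (100% of values up to 100 CPM whole within 0.1) for depth and counting intervals only. The SAH pairs differed beyond the noise of counting, with a chi-square of 9.16 to 20.9 per degree of freedom.

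The model was run on log2(CPM + 1) in limma 3.58.1 under R 4.3.3 (linear model, empirical Bayes with trend, two-sided), for genes with at least 1 CPM in at least 2 libraries. Fold changes on this scale understate the change of low genes. Within a cell type, organ and treatment were additive terms (3 residual degrees of freedom); their interaction left 2, and the model of both cell types 6. P-values were adjusted by Benjamini-Hochberg over every gene tested in a comparison, with calls made below 0.05. The fit was checked on simulated data. Library numbers 1 to 6 are each shared by a Treg and a Tcon library. Residuals of same-numbered libraries correlated at 0.286 to 0.537, each above every other number (at most 0.267). The additive model makes the residuals of libraries 1 and 4 mirror each other, so both have the value 0.286. Deviations within the SAH groups, from the same libraries, correlated at 0.438 and 0.556. These values are therefore not separate checks of pairing. The number was used as a block in an alternative fit. Exon lengths, coordinates and untranslated regions come from the GENCODE annotation of mm10, which holds 95.9% of symbols, and promoter windows from RefSeq, with windows for 7 of the 8 genes.

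The genes, the lists and the tests were chosen with earlier results of these data known. Named genes are the 8, Foxp3, from each list at most 6 called genes per comparison with the smallest adjusted p, and the 3 nearest profiles of genes that vary by at least 1.5 times within a cell type. One item of the marker lists is not reported here.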

Additional observations from a re-analysis of the deposited data

Results flagged for a closer look

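The organ difference differed between Treg and Tcon for Nfatc1 and Runx2 when the library number was a block. For Nfatc1 the change from lymph node to spleen was greater in Treg by 0.22 on the log2 scale (95% interval 0.12 to 0.33, limma adjusted p = 0.0115), and for Runx2 it was smaller in Treg, at -0.43 (-0.69 to -0.18, adjusted p = 0.0377). Without the block neither passed, at adjusted p = 0.113 and 0.230. The size for Runx2 depends on the 1 CPM added before the log, which shrinks changes of low values: with 0.1 CPM added and no block the difference was -0.69 (limma adjusted p = 0.0602). The Treg to Tcon ratio of Nfatc1 was 1.64, 1.67 and 1.58 at the spleen numbers against 1.39, 1.44 and 1.35 at the lymph node numbers.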

How the results depend on the processing

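With 1 vehicle library per organ and 3 residual degrees of freedom, small changes of the 8 genes cannot be detected, and the Tcon values of Runx2 are limited by 70 to 244 reads. The test on rebuilt reads and the TMM scaling of both tables were not run; a median-ratio scaling, chosen after seeing the data, stood in for the latter. Of 1047 alternative values of single genes, 934 kept their direction and side of the threshold, 80 lost the call, 3 gained it and 30 changed sign, 27 of these with a library left out. The cause of the changes was not tested.

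Rescaling each library to the same total turned 3 uncalled values near 0: the SAH effect of Nfat5 in Tcon (-0.0091), the organ difference of Cbfb in Treg (-0.024) and the organ difference by cell type of Runx3 (-0.0054). It also ended the calls of Sgk1 and Slc38a2 with SAH in Tcon (adjusted p = 0.0634 each) and of Orai1 and Aes for the organ in Treg (0.0562 and 0.0898). With at least 5 CPM in 3 libraries, Runx2 is not tested in Tcon and 0 members are called for the organ. The SAH effect by organ in Treg had 2 calls among all genes (1 in the reported fit) with a pseudocount of 0.1, with the 5 CPM filter and with 1 symbol per gene. With the replicate block, 76 genes were called for the SAH effect by cell type (0 without it) and 703 genes and 2 members for the organ difference by cell type (143 and 0); the block changed no other call of the 8 genes. Under the median-ratio scaling, which moves the median log2 ratio of all genes from 0.087 to -0.0019, the log2 ratio of Treg to Tcon was -0.0097 for Runx1, -0.72 for Runx3, -0.33 for Cbfb, 0.40 for Nfatc2 and -0.17 for Nfatc3.

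With 1 library left out in turn, calls among all genes ranged from 7 to 95 for SAH in Treg, 11 to 226 for SAH in Tcon, 768 to 1830 for the organ in Treg, 215 to 628 for the organ in Tcon, 0 to 94 and 0 to 15 for SAH by organ in Treg and Tcon, 0 to 7 for SAH by cell type and 79 to 287 for the organ difference by cell type, where 0 to 1 of the 8 genes were called. Uncalled values that changed sign ranged, for SAH in Treg, from -0.22 to 0.28 (Runx2) and -0.041 to 0.036 (Nfat5), and in Tcon from -0.26 to 0.34 (Nfat5) and -0.069 to 0.018 (Nfatc2). For the organ they ranged from -0.035 to 0.042 (Cbfb in Treg), -0.21 to 0.14 (Nfat5 in Tcon) and -0.081 to 0.099 (Runx1 in Tcon). For SAH by cell type Runx2 ranged from -0.028 to 0.47, and for the organ difference by cell type Runx3 ranged from -0.040 to 0.040 and Nfat5 from -0.22 to 0.13. The called organ difference of Runx1 in Treg ranged from 0.18 to 0.22.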
